A study of Mus musculus with 6 samples.

Results

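Broad H3K4me3 peaks free of H3K27me3 were examined in cultured mouse neural stem cells (NSCs) of the subventricular zone (SVZ). They were 869 peaks out of the 18727 in the H3K4me3 list, or 4.82% of the 18037 that lay on chromosomes 1 to 19. The peaks were chosen by measured values: a width of 4000 bp or more, and no overlap, of even 1 bp, with an H3K27me3 peak in proliferating cultures or in cultures 30 h into differentiation. Width, score and the absence of overlapping H3K27me3 are therefore given as a description of these peaks and not as findings.

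H3K4me3 is the trimethylated form of lysine 4 of histone H3, found mainly around the start sites of genes that are active or ready to be transcribed. It usually forms a narrow peak. In many cell types a minority of peaks spread over several kilobases, and such broad domains are known for covering genes that give a cell type its identity. H3K27me3, trimethylated lysine 27, is placed by the EZH2 subunit of Polycomb repressive complex 2 and goes with silencing, while a region with both marks is called bivalent. NSCs of the SVZ are astrocyte-like cells that go on making olfactory bulb interneurons and some glia after birth.

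The lists came from ChIP-seq, where an antibody against the modified histone pulls down the DNA wrapped around it for sequencing, with 1 library each. SVZ NSC monolayers of strain C57BL/6, with no altered allele named in the labels, were started from early postnatal mice and used at passages 5 to 7. H3K4me3 was measured in proliferating cells that the labels call ventral, and H3K27me3 in proliferating cells not so called and in cells 30 h after the start of differentiation, for which the study's medium leaves out EGF and bFGF and holds less serum. NSC cultures leaving proliferation generally hold cells at different stages, and the makeup of the 30 h culture was not measured in these lists. No library was repeated, so no difference between lists could be tested against variation between cultures, and the H3K4me3 and H3K27me3 cultures may differ in origin. The lists give positions in mm9 and a MACS score but no reads, so depth is unknown, and whether depth or threshold accounts for an absent peak was not tested. Intervals below are 95% intervals (Wilson for shares, exact order-statistic intervals for medians) and cover counting error over peaks of the same library only. No peak is assigned to a gene and no sequence is shown, as mm9 genes and sequence were not analysed here.

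The 869 peaks covered 4.61 Mb, 12.1% of the 38.2 Mb under H3K4me3 on these chromosomes. Most were only a little above the width limit. Their median width was 4717 bp, 518 of them (59.6%) were under 5000 bp wide, and the quartiles of width were 4297 and 5526 bp. The tail was long and thin, with 141 peaks (16.2%) of 6000 bp or more, 53 (6.10%) of 8000 bp or more and 22 (2.53%) of 10000 bp or more. The limit cut through a continuous range of widths. The 5 narrowest peaks included were 4000 to 4003 bp wide and the 5 widest left out for width alone were 3997 to 3998 bp wide, and 81 peaks lay within 100 bp above the limit against 112 free peaks within 100 bp below it.

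**Figure D1:**
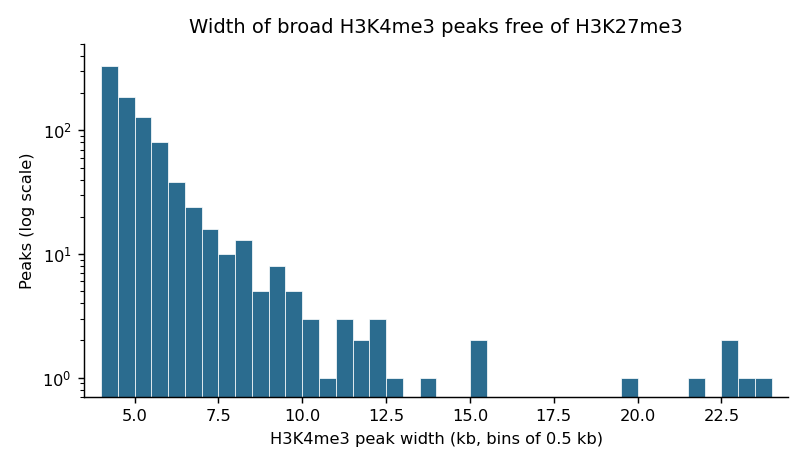
Number of broad H3K4me3 peaks free of H3K27me3 (y axis, log scale) by width (x axis, kb, bins of 0.5 kb) in 1 library of proliferating SVZ NSCs. Counts fall steeply from the limit of 4 kb, and 6 peaks of 19.7 to 23.8 kb stand beyond an empty stretch above 15.2 kb.

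A set of 6 peaks stood apart at the wide end. The widest, chr1:42739955-42763797, spanned 23.8 kb. It was followed by chr12:50474032-50497521 at 23.5 kb, chr2:115879631-115902567 at 22.9 kb and chr13:83858830-83881642 at 22.8 kb. The next were chr3:34544158-34566046 at 21.9 kb and chr4:22403986-22423722 at 19.7 kb. No other peak exceeded 15.2 kb, the width of chr4:82144934-82160084, so these 6 were separated from the rest by 4 kb and more. The 10 widest were completed by chr15:85498994-85514065 (15.1 kb), chr7:86642676-86656623 (13.9 kb) and chr3:88009861-88022611 (12.8 kb). Of 23 peaks of 10000 bp or more on chromosomes 1 to 19, 22 were free of H3K27me3. That is near the share of all 933 peaks of 4000 bp or more, 93.1%, so it does not set the widest apart.

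The MACS score hardly ranked these peaks. A single score of 3100 was shared by 848 of the 869 (97.6%), 1 peak of 4357 bp scored 3167, and the other 20 scored from 943 to 2868. The weaker 20 were mostly near the width limit, with a median width of 4336 bp and a widest of 7811 bp. The lowest score belonged to chr5:124633931-124638102, 4172 bp wide. Among narrower H3K4me3 peaks free of H3K27me3, 50.1% reached the score of 3100 or more, so narrower peaks with that score are set beside the broad ones below. Peaks that share this score can still differ in signal, so the comparison does not match the groups for strength.

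Broad peaks free of H3K27me3 were found on each of the 19 autosomes, from 25 on chromosome 18 to 74 on chromosome 11. They made up 3.19% (2.41 to 4.21%) of the H3K4me3 peaks on chromosome 2, the lowest share, and 6.32% (4.93 to 8.06%) on chromosome 3, the highest. Relative to the 4.82% over all autosomes, the interval lay below on chromosome 2 alone and above on chromosomes 1 (6.16%, 4.86 to 7.78%) and 3. No allowance was made for comparing 19 chromosomes or for dependence between neighbouring peaks, so these chromosomes are not shown to differ from the rest. Chromosome 2 also held the most H3K4me3 peaks, 1474, of which 47 were broad and free. Per Mb up to the last listed peak, density ranged from 0.208 on chromosome 14 to 0.607 on chromosome 11, which was also the densest in H3K4me3 peaks of any width (11.4 per Mb).

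The widest peaks were spread over the genome too. A peak of 10000 bp or more was present on 14 of the 19 autosomes, 3 each on chromosomes 4 and 5. Beyond the chromosomes named above, the widest peak was chr5:143573719-143586040 (12.3 kb) on chromosome 5, chr6:134869081-134881551 (12.5 kb) on chromosome 6 and chr8:91559140-91571032 (11.9 kb) on chromosome 8. On chromosome 16 it was chr16:43502635-43513848 (11.2 kb), on chromosome 17 chr17:10501604-10511873 (10.3 kb) and on chromosome 19 chr19:59530896-59542994 (12.1 kb). On the remaining 5 no peak reached 10 kb. There the widest were chr9:41387067-41397035 (9.97 kb), chr18:83078447-83087793 (9.35 kb), chr14:106290166-106298794 (8.63 kb), chr11:112641263-112649143 (7.88 kb) and chr10:42297724-42305576 (7.85 kb). Chromosome 11 thus had the most broad peaks but none of 10 kb.

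Freedom from H3K27me3 was the usual state of broad H3K4me3 peaks. On chromosomes 1 to 19, 5.17% of H3K4me3 peaks (933) were 4000 bp or wider, and 869 of these (93.1%, 91.3 to 94.6%) met H3K27me3 in neither list, against 84.7% of H3K4me3 peaks of any width and 84.2% (83.7 to 84.8%) of the narrower. Of the 64 left out, H3K27me3 was present in both lists at 45, only at 30 h at 13 and only in proliferating cultures at 6. The low overlap did not begin at 4 kb (width classes here and below include their lower bound only). Overlap with proliferating H3K27me3 was highest, 21.4%, for H3K4me3 peaks of 1000 to 1500 bp, fell to 7.49% at 2000 to 2500 bp and 4.30% at 2500 to 3000 bp, and was 5.39% (3.8 to 7.58%) at 4000 to 5000 bp, 4.04% (2.14 to 7.49%) at 5000 to 6000 bp, 9.28% (4.96 to 16.7%) at 6000 to 8000 bp and 5.36% (1.84 to 14.6%) at 8000 bp or more. The intervals of these 4 broad classes overlapped. The 30 h list gave 27% at 1000 to 1500 bp, 5.64% at 2500 to 3000 bp, 6.46% at 4000 to 5000 bp, 5.83% at 5000 to 6000 bp, 7.22% at 6000 to 8000 bp and 3.57% at 8000 bp or more. Score moved with width in these classes: 0.743% of peaks of 1000 to 1500 bp had a score of 3100 or more, against 90.7% at 2500 to 3000 bp and 95.2% at 4000 to 5000 bp, and its part in the overlap was not tested.

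**Figure D2:**
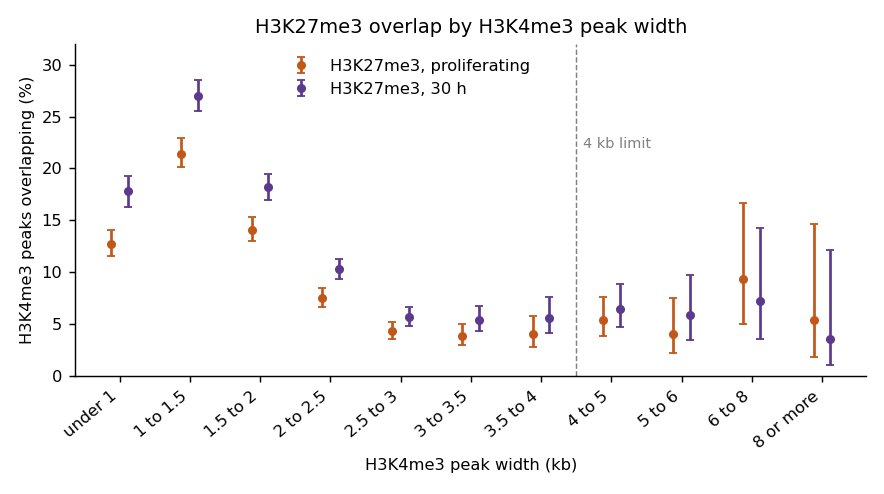
Share of H3K4me3 peaks on chromosomes 1 to 19 that overlap an H3K27me3 peak (y axis, percent) by H3K4me3 width (x axis, kb), for the proliferating list and the 30 h list, 1 library each, with 95% Wilson intervals. Overlap peaks at 1 to 1.5 kb (21.4% and 27%) and lies between 3.57% and 9.28% from 2.5 kb up, on both sides of the dashed limit at 4 kb.

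The broad peaks that did carry H3K27me3 differed in how far it reached over them. The widest of these, chr17:86012347-86026084 (13.7 kb), had 43.7% of its length under proliferating H3K27me3, while the nearest 30 h peak ended 146 bp away. The next, chr6:47629100-47637155 (8.06 kb), chr6:47693256-47701277 (8.02 kb) and chr12:57631184-57639100 (7.92 kb), lay wholly under H3K27me3 in both lists, and chr19:59239023-59246881 (7.86 kb) was covered over 44.5% and 50% of its length in proliferating and 30 h cultures. Where both lists overlapped, the median cover was 59.6% in proliferating cultures and 75.1% at 30 h, and where only the 30 h list did, it was 15.5%. At 13 of the 64 peaks, H3K27me3 covered under 25% of the length in both lists.

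The broad free peaks also lay farther from H3K27me3 than narrower free peaks as a whole, a measure that the choice of peaks used only by barring overlap. The median distance from the edge of a broad peak to the nearest H3K27me3 peak was 153 kb (139 to 170 kb) in proliferating cultures, against 109 kb (106 to 112 kb) for narrower free peaks. At 30 h it was 116 kb (104 to 136 kb) against 73.1 kb (71.1 to 75.7 kb). A proliferating H3K27me3 peak lay within 20 kb of 54 broad peaks (6.21%, 4.79 to 8.02%) and of 13.9% (13.4 to 14.5%) of the narrower, and a 30 h peak within 20 kb of 96 (11%, 9.13 to 13.3%) and of 23.7% (23.0 to 24.4%). Narrower free peaks with a score of 3100 or more were no farther away than narrower peaks in general, with medians of 105 kb (101 to 108 kb) and 67.8 kb (64.6 to 71.1 kb). Free peaks of 3000 to 4000 bp lay in between, at 120 kb (113 to 126 kb) and 91.7 kb (85.6 to 98.8 kb). Long distances were not particular to broad peaks, and distance did not follow width over the whole range. The narrowest free peaks, under 1000 bp, had medians of 135 kb (127 to 147 kb) and 103 kb (96 to 114 kb), close to the 142 kb (122 to 161 kb) and 103 kb (93.6 to 119 kb) of broad peaks of 4000 to 5000 bp. Within 20 kb they nonetheless had H3K27me3 more often than broad peaks did, at 13.6% (12.2 to 15.2%) in proliferating cultures and 21.6% (19.9 to 23.5%) at 30 h. Peaks along a chromosome are not independent, and these intervals do not allow for that.

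**Figure D3:**
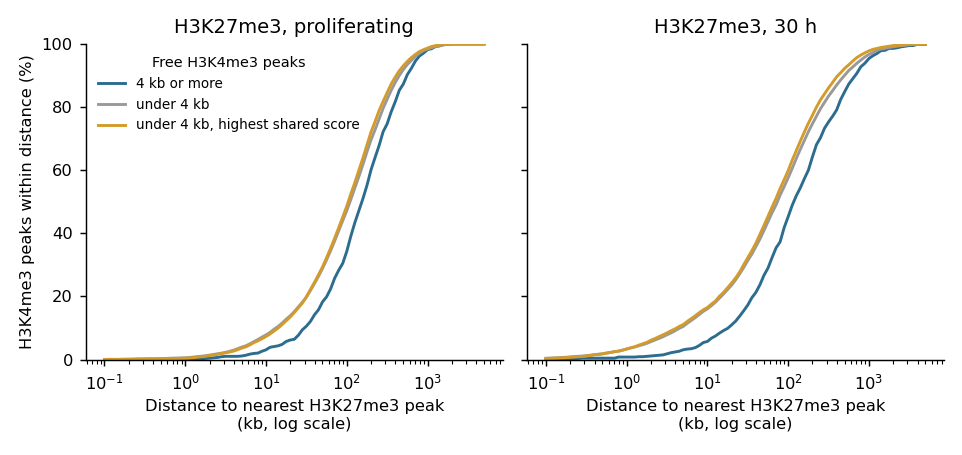
Cumulative share of H3K4me3 peaks free of H3K27me3 (y axis, percent) by distance to the nearest H3K27me3 peak (x axis, kb, log scale) in the proliferating list (left) and the 30 h list (right). The curve for peaks of 4 kb or more runs to the right of both curves for narrower peaks, with medians of 153 and 116 kb against 109 and 73.1 kb.

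The same was seen in the DNA beside the peaks. Within 5 kb of their edges, proliferating H3K27me3 covered 0.208% of the DNA next to broad free peaks and 0.710% next to narrower free peaks, and 30 h H3K27me3 covered 0.630% and 2.80%. From 50 to 100 kb away, the proliferating cover had risen to 1.43% for broad and 1.95% for narrower peaks, and the 30 h cover to 3.54% and 4.83%. By comparison, H3K27me3 on chromosomes 1 to 19 up to the last listed peak covered 1.13% in proliferating cultures and 2.92% at 30 h. Cover beside broad peaks was thus below these figures up to 50 kb away in both lists. Near the edges this is partly by construction, since the choice barred overlapping H3K27me3 and the chromosome figures carry no such condition. Narrower free peaks, under the same bar, were also below the chromosome figures within 5 kb, but above them from 5 to 10 kb (1.37% and 3.91%). The 30 h list covers 2.58 times as much of these chromosomes as the proliferating list (72.1 against 28 Mb), and beside broad peaks the ratio was 3.03 within 5 kb and 2.47 at 50 to 100 kb. Beside narrower free peaks it was higher within 5 kb, 3.94 (4.54 for those with a score of 3100 or more), and 2.48 at 50 to 100 kb.

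Between the lists, 581 broad free peaks (66.9%) were nearer to H3K27me3 at 30 h than in proliferating cultures and 288 were farther, and 72.3% of narrower free peaks were nearer. The shorter median distance at 30 h was not kept when the 30 h list was cut down. When only the 9470 highest-scoring 30 h peaks were kept, to equal the proliferating list in number, the median distance at 30 h became 174 kb (154 to 191 kb) for broad peaks, no longer below the 153 kb of proliferating cultures, and 109 kb (105 to 112 kb) for narrower ones. Only the lowest-scoring 30 h peaks were dropped, so number and score changed together. For broad peaks the interval overlapped that of proliferating cultures (139 to 170 kb). A change of H3K27me3 around these peaks and the longer list cannot be told apart here. Within 20 kb, H3K27me3 was found in both lists beside 39 broad peaks, at 30 h only beside 57, in the proliferating list only beside 15 and in neither beside 758 (87.2%, 84.8 to 89.3%). It rarely flanked a broad peak on both sides, which was so within 20 kb for 2 peaks in proliferating cultures and 5 at 30 h.

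A few broad peaks ended close to H3K27me3. At chr17:23809787-23814966 (5180 bp) both H3K27me3 lists resumed on the same side, 246 bp away in proliferating cultures and 249 bp away at 30 h, in peaks of 2.59 and 3.35 kb. At chr5:100926380-100930479 (4100 bp) the nearest proliferating peak was 2170 bp away and 2.41 kb wide, and the nearest 30 h peak was 268 bp away, 15.5 kb wide and scored 1587. At chr7:53651141-53657147 (6007 bp) H3K27me3 lay 126 bp away at 30 h and 16.5 kb away in proliferating cultures, and at chr11:69227475-69234340 (6866 bp) it lay 201 bp and 129 kb away, in a 30 h peak with a score of only 62.81. At chr19:40584581-40589025 (4445 bp) the order was the other way round, with H3K27me3 1006 bp away in proliferating cultures, in a peak with a score of 56.87, and 99.5 kb away at 30 h. The peaks scoring 62.81 and 56.87 were near the lowest listed scores, 50.03 at 30 h and 50.01 in proliferating cultures. Whether H3K27me3 below the threshold lay at these places in the other list was not tested. Also near were chr3:96360634-96365769, with gaps of 1716 and 1779 bp in proliferating cultures and at 30 h, chr7:5011318-5015618, with gaps of 1841 and 1367 bp, and chr11:68934515-68939979, with gaps of 27.2 kb and 736 bp.

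At the other extreme, 4 broad peaks had no H3K27me3 within 1000 kb in either list. These were chr13:89878249-89882670, with gaps of 1846 kb in proliferating cultures and 3018 kb at 30 h, chr12:54347087-54356506, with gaps of 1650 kb in both lists, chr6:141196286-141200749 (1181 and 1297 kb) and chr16:77328028-77333391 (1184 and 1050 kb). The fifth most distant, chr16:77417504-77423860 (1255 and 960 kb), was on the same stretch of chromosome 16.

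Distance to H3K27me3 tended to be greater in the wider classes of broad peaks. The median in proliferating cultures was 142 kb (122 to 161 kb) for the 518 peaks of 4000 to 5000 bp, 153 kb (132 to 190 kb) for the 210 of 5000 to 6000 bp, 175 kb (135 to 205 kb) for the 88 of 6000 to 8000 bp, 248 kb (129 to 339 kb) for the 31 of 8000 to 10000 bp and 234 kb (105 to 453 kb) for the 22 of 10000 bp or more. At 30 h the medians were 103, 124, 169, 176 and 304 kb in the same order. Intervals of neighbouring classes overlapped throughout. No interval of a difference was computed, so the steps between classes were not tested. Of the 22 peaks of 10000 bp or more, 0 had H3K27me3 within 20 kb in either list. This allows a share of up to 13.6% taking 3 peaks as the limit of a count of 0 (the Wilson upper bound is 14.9%). Of all 869 broad free peaks, 87.2% had none within 20 kb in either list, so the count of 0 does not set the 22 apart. Distances of the 22 ran from 25 to 891 kb in proliferating cultures and from 35.5 to 3928 kb at 30 h. Of these 22, 11 were nearer to H3K27me3 at 30 h and 11 were farther. The peak of 19.7 kb on chromosome 4 was the nearest in proliferating cultures, 25 kb, with 171 kb at 30 h, while the 22.8 kb peak on chromosome 13 was the farthest at 30 h, 3928 kb, with 368 kb in proliferating cultures. The 23.8 kb peak on chromosome 1 lay 140 kb from H3K27me3 in proliferating cultures and 123 kb at 30 h, and the 21.9 kb peak on chromosome 3 lay 463 and 458 kb away. The 23.5 kb peak on chromosome 12 was far nearer in proliferating cultures (135 kb) than at 30 h (1715 kb), and the 22.9 kb peak on chromosome 2 was remote in both (891 and 1155 kb).

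The other H3K4me3 peaks near the broad ones, which had no part in the choice, set the widest apart. Another H3K4me3 peak lay within 5 kb of 182 of the 869 broad peaks (20.9%, 18.4 to 23.8%), compared with 18.4% (17.8 to 19.1%) of narrower free peaks, 14.8% (14.0 to 15.7%) of those with a score of 3100 or more and 13.5% (12.1 to 15.2%) of free peaks of 3000 to 4000 bp. Among peaks of 4000 to 5000 bp the share was 18.5% (15.4 to 22.1%), and at 8000 to 10000 bp it was 25.8% (13.7 to 43.2%). At 10000 bp or more it was 77.3% (56.6 to 89.9%), or 17 of 22, with an interval clear of that of every narrower class shown. The median gap to the next H3K4me3 peak was 1.67 kb (0.595 to 3.79 kb) for these 22 and 29.5 kb (23.9 to 32.3 kb) for those of 4000 to 5000 bp. All of the 10 widest had such a neighbour, at gaps of 168 to 3789 bp. The nearest such neighbours of broad peaks within 5 kb had a median width of 1677 bp (1422 to 1914 bp) against 1851 bp (1802 to 1901 bp) for neighbours of narrower free peaks, and 14 of the 182 were themselves 4000 bp or wider. Neighbours under 1000 bp wide were 42 of 182 (23.1%) beside broad peaks, 14.5% beside narrower free peaks and 16.1% beside those with a score of 3100 or more.

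**Figure D4:**
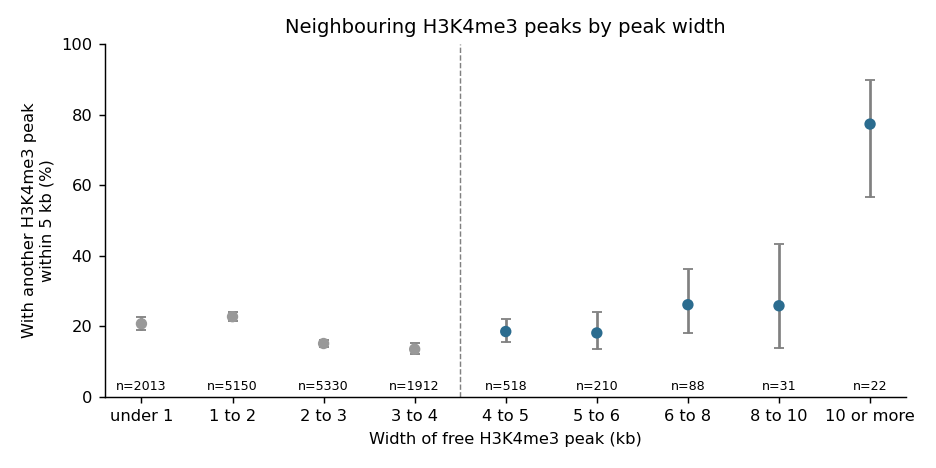
Share of H3K4me3 peaks free of H3K27me3 that have another H3K4me3 peak within 5 kb of an edge (y axis, percent), by width (x axis, kb), with 95% Wilson intervals and the number of peaks in each class. The share lies between 13.5% and 26.1% in all classes up to 10 kb and is 77.3% at 10 kb or more.

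Joining H3K4me3 peaks less than 3 kb apart placed the 869 broad peaks in 860 runs. Most stood alone: 734 runs were 1 peak, 101 were 2 peaks and 25 were 3 peaks or more, and 9 runs held a pair of broad peaks. Most of the longest runs contained the widest peaks with shorter peaks at their flanks. That the widest peaks fall in the longest runs is largely by construction, since run length includes peak width. On chromosome 1 the 23.8 kb peak was preceded by a peak of 2.03 kb and followed by a broad peak of 5.73 kb, in a run of 36.0 kb (chr1:42735759-42771752). On chromosome 3 the 21.9 kb peak followed a broad peak of 7.10 kb, 619 bp away, and preceded peaks of 1.30 and 0.648 kb, in a run of 34.3 kb (chr3:34536435-34570757). On chromosome 13 the 22.8 kb peak lay between peaks of 2.42 and 1.77 kb (chr13:83854419-83885574, 31.2 kb), and on chromosome 12 the 23.5 kb peak was followed by a broad peak of 4.70 kb (chr12:50474032-50503626, 29.6 kb). None of these runs included an H3K4me3 peak that overlapped H3K27me3.

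The run chr8:87293743-87325024 was built differently. It held 7 peaks over 31.3 kb, none wider than 6.75 kb, and H3K4me3 covered 71.1% of it, compared with 86.7 to 95.2% of the other 4 longest runs. Its peaks were 6.75, 3.83, 4.62, 1.64, 2.09, 2.60 and 0.701 kb wide, with scores from 75.17 to 3100, and only the first and the third were 4 kb or more. The remaining pairs of broad peaks were on chromosomes 2, 4, 8, 11 and 15, among them peaks of 6.74 and 5.60 kb that were 140 bp apart in the run chr4:154003834-154016319 and peaks of 4.13 and 15.1 kb that were 229 bp apart in the run chr15:85494635-85514065. How a domain is split into peaks thus bears on width. When H3K4me3 peaks less than 1000 bp apart were merged beforehand, 1037 broad peaks were free of H3K27me3, of which 172 contained no listed peak of 4000 bp or more.

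**Figure D5:**
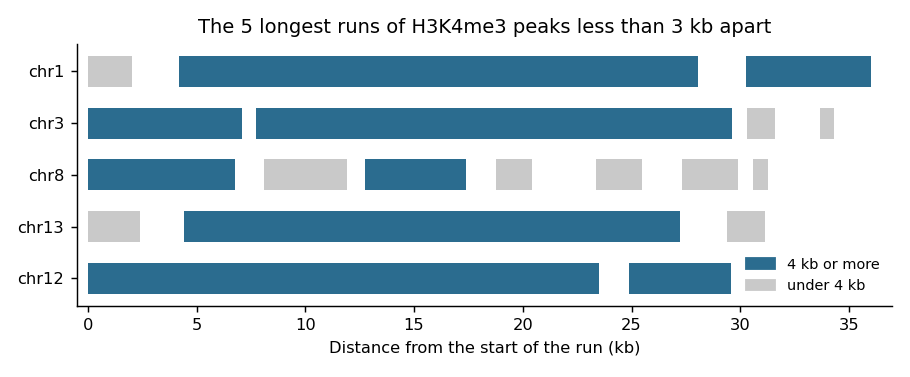
The 5 longest runs of H3K4me3 peaks less than 3 kb apart that hold a broad peak free of H3K27me3 (rows, named by chromosome), drawn to scale by distance from the start of the run (x axis, kb), with peaks of 4 kb or more in blue and narrower ones in grey. In 4 runs a peak of 21.9 to 23.8 kb takes up most of the length, while the run on chromosome 8 holds 7 peaks of at most 6.75 kb.

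Other broad peaks were isolated. No other H3K4me3 peak lay within 100 kb of 147 (16.9%, 14.6 to 19.6%), against 12.8% (12.3 to 13.3%) of narrower free peaks and 11.3% (10.6 to 12.1%) of those with a score of 3100 or more. The median width of these 147 was 4714 bp (4593 to 4948 bp), and 1 of them reached 10 kb. They were also the farthest from H3K27me3, with medians of 234 kb (191 to 315 kb) in proliferating cultures and 326 kb (219 to 411 kb) at 30 h, compared with 124 kb (105 to 142 kb) and 85.5 kb (64.1 to 106 kb) for the 182 with H3K4me3 within 5 kb. Within 500 kb of its centre a broad peak had a median of 10 other H3K4me3 peaks (10 to 11) and a narrower free peak 12 (12 to 12). A sparse setting was not particular to broad free peaks. Free peaks under 1000 bp had a median of 9 other H3K4me3 peaks (9 to 10) within 500 kb and broad peaks overlapping H3K27me3 had 7 (5 to 10), and 19% (17.4 to 20.8%) and 23.4% (14.7 to 35.1%) of these had none within 100 kb of an edge. H3K4me3 covered 3.92% of the DNA within 5 kb of broad free peaks and 3.32% of that beside narrower free peaks. Beside broad peaks overlapping H3K27me3 it covered 11.3%. The part of this setting in the distance of broad peaks from H3K27me3 was not tested. Broad free peaks were seldom close to each other, with a median gap of 639 kb to the next broad free peak and 141 (16.2%) with another within 100 kb.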

How the data were processed

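Peak lists for H3K4me3 and H3K27me3 in proliferating SVZ NSCs and for H3K27me3 at 30 h of differentiation were analysed, 1 library each. The submitters' processing notes name Bowtie2 and mm9, and the authors called peaks with MACS, for H3K27me3 without model and without local lambda; no source used here gives its version, its threshold or its settings for H3K4me3. Each deposited peak carries a MACS score, kept as the authors gave it and used only within a list. The lowest score was 50.01 in the H3K4me3 list, 50.01 in the proliferating H3K27me3 list and 50.03 in the 30 h list. Starts were taken as counted from 0 and are printed counted from 1; width is end minus start as deposited. Input libraries were not analysed here, and no peak was checked against them.

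Broad peaks were chosen as stated, with earlier results of these data known, as were the lists and settings. Peaks named were the widest overall and per chromosome, those at the width limit, those nearest to and farthest from H3K27me3, the longest runs and the widest left out; the lowest score, single peaks and the comparison with narrower peaks of high score or of set widths were added after values were seen. Distances count the bases between edges. Python 3.11.15, numpy 2.4.6, pandas 2.3.3, scipy 1.17.1 and matplotlib 3.10.9 were used; the code was tested on simulated data and its overlap counts equalled those of bedtools 2.31.1 (2051 and 2679 H3K4me3 peaks). No test was run, since peaks are not replicates. Results planned on genes and base composition were not computed: the gene and promoter tables at hand are of GRCm38, not mm9.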

Additional observations from a re-analysis of the deposited data

How the results depend on the processing

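The number of broad H3K4me3 peaks free of H3K27me3 was 2781 with a width limit of 3000 bp and 351 with 5000 bp, by construction, and stayed within 1.5 times 869 under the other 4 settings. The share of broad peaks that were free moved to 89.8% when no H3K27me3 was allowed within 5000 bp (narrower peaks, 74.6%) and to 94.6% with the stronger 50% of each H3K27me3 list (narrower peaks, 87.2%). Another H3K4me3 peak lay within 2000 bp of 12% and within 10000 bp of 30.6% of broad free peaks. With the stronger 50% of each list, the median distance to H3K27me3 was 256 kb in proliferating cultures and 192 kb at 30 h; narrower free peaks had 191 and 130 kb. At 30 h it was 174 kb with as many peaks as the proliferating list and 510 kb, a setting added after seeing the data, at the covered length of the proliferating list, where narrower free peaks had 389 kb. Broad peaks had the longer median in each of these settings; the shorter lists lengthen every distance by construction. The settings on start sites and base composition were not run for want of mm9 genes and sequence. No paired analysis was possible because each list is 1 library. Depth is unknown and limits every statement on absent peaks.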

Other observations

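Chromosome X, which was outside the choice, held 610 H3K4me3 peaks, of which 20 were 4000 bp or wider and free of H3K27me3. This was 3.28% (95% Wilson interval 2.13 to 5.01%), against 4.82% (4.51 to 5.14%) on chromosomes 1 to 19, and the intervals overlapped. None of the 20 was wider than 5786 bp, the width of chrX:45693770-45699555. On the autosomes 22 of the 869 (2.53%) reached 10000 bp, a share at which 20 peaks can easily hold none. The median width of H3K4me3 peaks was 1929 bp on X and 1974 bp on the autosomes. On chromosome Y and the random contigs, 3 H3K4me3 peaks were 4000 bp or wider and 1 of them was free of H3K27me3.

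The H3K27me3 peaks nearest to broad free H3K4me3 peaks were of ordinary size. The 53 proliferating peaks that were nearest to the 54 broad peaks with H3K27me3 within 20 kb had a median width of 2258 bp and a median score of 106, compared with 2082 bp and 88.9 for the list on chromosomes 1 to 19. The 95 such peaks at 30 h had a median width of 3409 bp and a median score of 185, compared with a score of 155 for that list. The widest of them was 19075 bp.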
